A study of Homo sapiens with 12 samples.

Results

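KP4 is an established human pancreatic ductal adenocarcinoma cell line, and its transcriptional response to the MEK inhibitor trametinib is described here beyond the well known readouts of the pathway. The groups are KP4 cells given 100 nM trametinib for 48 h (3 libraries), KP4 cells given the solvent DMSO for 48 h (3 libraries), MiaPaca2 cells given 100 nM trametinib for 48 h (3 libraries) and MiaPaca2 cells given DMSO for 48 h (3 libraries). MiaPaca2 is the other pancreatic cancer line of the study. The 6 KP4 libraries were chosen from the 12 of the series by their labels alone, with no measured value, and MiaPaca2 serves to test where KP4 responded differently. The MiaPaca2 libraries also entered the estimate of spread behind every KP4 call: fitted on the KP4 libraries alone, 4493 genes were higher and 4508 lower, against the 3863 and 3890 given below. All 58735 genes of the count table are members, of which 31413 had a count in some library, 16133 passed the filter on low counts and were tested, and 14981 of those had at least 10 counts in at least 3 KP4 libraries. All 4 groups were grown in the same medium, and each line is 1 cell line, so neither stands for pancreatic tumours in general. Whether the 3 libraries of a group stand for 3 independent cultures is not stated in the labels; the spread behind every p-value is that among these libraries and may be technical.

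MEK1 and MEK2 are the kinases that phosphorylate and activate ERK1 and ERK2 at the end of the RAS-RAF-MEK-ERK cascade, and pancreatic ductal adenocarcinoma is known for mutations that keep RAS active. ERK phosphorylates transcription factors of the ETS and AP-1 families among others, so that growth, motility, secretion of cytokines and matrix remodelling are all known outputs of the cascade. Trametinib binds MEK beside its ATP site and keeps it inactive.

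Libraries were made from RNA of whole cultures with an mRNA kit and sequenced to 26386236 to 28018129 counts in trametinib-treated KP4 and 25105937 to 27859186 counts in DMSO-treated KP4. MiaPaca2 DMSO library 2 stood apart from its replicates: between pairs of MiaPaca2 DMSO libraries, the chi-square per degree of freedom of the counts over genes was 14.489 and 13.285 for the pairs with library 2 and 7.698 for the other pair, against 2.015 to 2.451 among pairs of KP4 libraries. In such bulk samples, fewer cells of a type and less RNA per cell cannot be told apart. Mitochondrial genes took 5.48 to 5.75% of counts with trametinib and 4.16 to 4.38% with DMSO. The ductal epithelial label was checked against 10 markers. KRT8, KRT18, KRT19, SOX9 and MUC1 were present, whereas EPCAM averaged 0.478 ± 0.145 CPM with trametinib and 0.353 ± 0.0789 CPM with DMSO (CPM is the count scaled to a common library total; SD, n = 3 each), and CFTR had no count in KP4. Among 8 mesenchymal markers, the intermediate filament VIM averaged 3085 ± 6.42 CPM with trametinib and 3629 ± 11 CPM with DMSO. CDH2 averaged 173 ± 1.99 CPM with trametinib and 131 ± 2.85 CPM with DMSO. ZEB1 averaged 44.2 ± 1.13 CPM with trametinib and 55.5 ± 2.17 CPM with DMSO. FN1 averaged 14.7 ± 0.189 CPM with trametinib and 15.3 ± 0.676 CPM with DMSO. ZEB2 was at 0.0835 CPM with trametinib and 0.0388 CPM with DMSO, and TWIST1, TWIST2 and SNAI2 had no count. Immune markers summed to 0.843 to 0.897 CPM with trametinib and 1.67 to 1.86 CPM with DMSO, with 3 of 7 at 0, and fibroblast markers to 10.5 to 10.8 CPM with trametinib and 6.85 to 8.24 CPM with DMSO, nearly all of it COL1A1. Endothelial markers stayed between 1.87 and 2.25 CPM with trametinib and between 2.14 and 2.65 CPM with DMSO, acinar ones between 0.738 and 1 CPM with trametinib and between 0.673 and 1.22 CPM with DMSO, and endocrine ones, carried by CHGB and SYP, between 38.6 and 40.5 CPM with trametinib and between 47.2 and 50.7 CPM with DMSO.

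In KP4, trametinib changed 48.1% of the tested genes at an edgeR adjusted p under 0.05. Of the 16133 genes, 3863 (23.9%) were higher and 3890 (24.1%) were lower than with DMSO. Most of these changes were small: the median absolute log2 change of the called genes was 0.42, and the median over all tested genes was 0.0. A change of at least 2-fold was found for 914 genes upward (5.67%) and 472 downward (2.93%), so large rises outnumbered large falls although the total calls were balanced. The CPM values of the 2 groups did not overlap for 60.1% of the genes. Among 13275 tested protein-coding genes, 768 were at least 2-fold higher and 369 at least 2-fold lower, and among 2110 long non-coding genes 126 were at least 2-fold higher and 84 at least 2-fold lower.

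The best known readouts are given here only as counts. Of 80 tested ERK output genes 9 were higher and 57 lower, of 161 cell cycle genes 17 were higher and 108 lower, of 118 lysosome and autophagy genes 62 were higher and 13 lower, of 34 iron genes 12 were higher and 14 lower, and of 172 interferon genes 139 were higher and 1 lower. These 5 lists held 570 tested genes. They accounted for 115 of the 914 large rises and 43 of the 472 large falls, so that 799 large rises and 429 large falls lay outside them. The rest of the text mainly concerns other genes, arranged in 44 lists by function. Some of these lists share members with the 5 readout lists, and those members are in their counts: 4 of the 32 complement and coagulation genes, 4 of the 48 SOX, FOX, GATA and TBX factors, 3 of the 44 cytokine and NF-kB genes, 3 of the 32 ABC transporters, 3 of the 31 p53 targets, 5 of the 228 solute carriers, 2 of the 37 matrix proteases and inhibitors, and at most 1 in each other list. Each list is set beside the shares over all genes, 23.9% higher and 24.1% lower.

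Some of the genes named share reads with others. The strand setting of the counting is not given in the sources used here, so reads cannot be told apart from those of a gene whose exons overlap for ADAMTSL4, ALDH1A3, B4GALT6, C1S, CDH3, CNTNAP1, DBP, DDX46, GALNT6, GATA6, GPR162, GPRC5B, HAS3, HDAC4, HSPG2, ITGB8, LIF, MDM2, MMP1, MMP11, MMP24, MTHFD2, PCDHGC3, PLAU, PLCD3, PTCH1, PXN, SLC19A1, SLC2A12, SNED1, SPHK1, SULF2, THBS1, TIAM2 and WNT4. UPK3B, MT-RNR2 and the protocadherins have near-identical copies. Values of these genes are therefore uncertain in what they count.

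**Figure D1:**
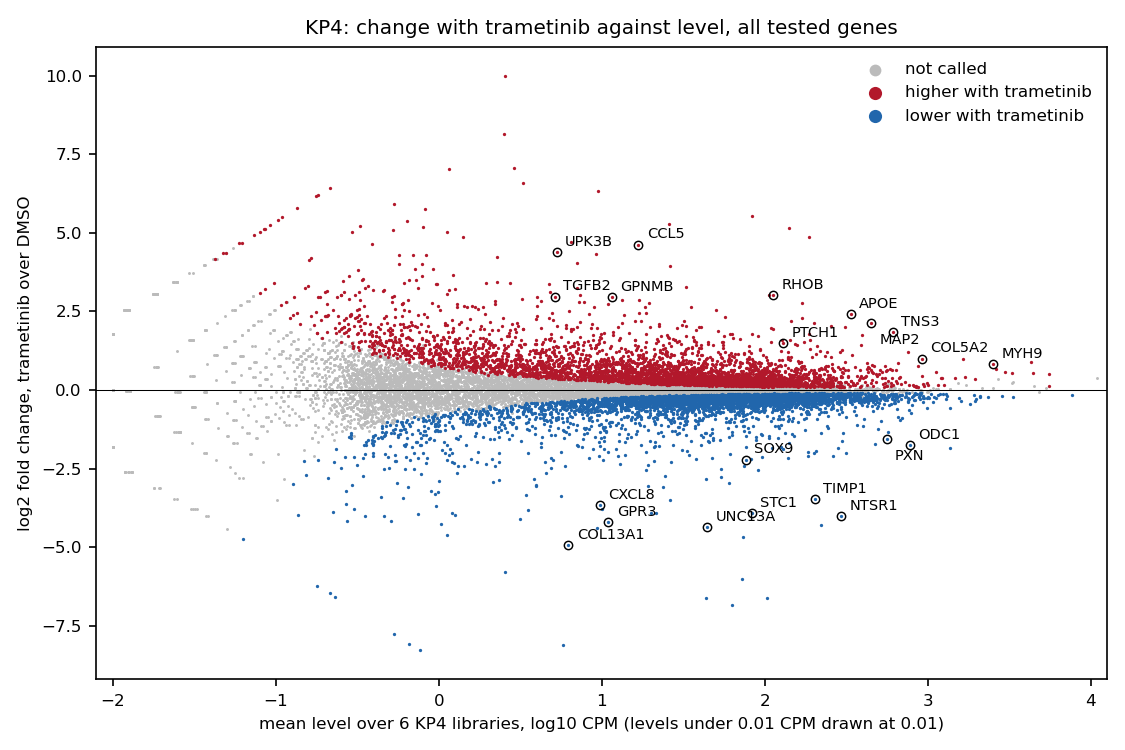
Fitted log2 fold change of every tested gene in KP4 (vertical axis, trametinib over DMSO) against its mean level over the 6 KP4 libraries (horizontal axis, log10 CPM). Red and blue points are the 3863 genes called higher and the 3890 called lower, grey points were not called, and circles mark named genes. Large changes were found at low and high levels, with many at low ones. With only genes of at least 10 CPM in at least 3 libraries tested, 377 were at least 2-fold higher and 223 at least 2-fold lower. Over all tested genes these counts were 914 and 472.

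**Figure D2:**
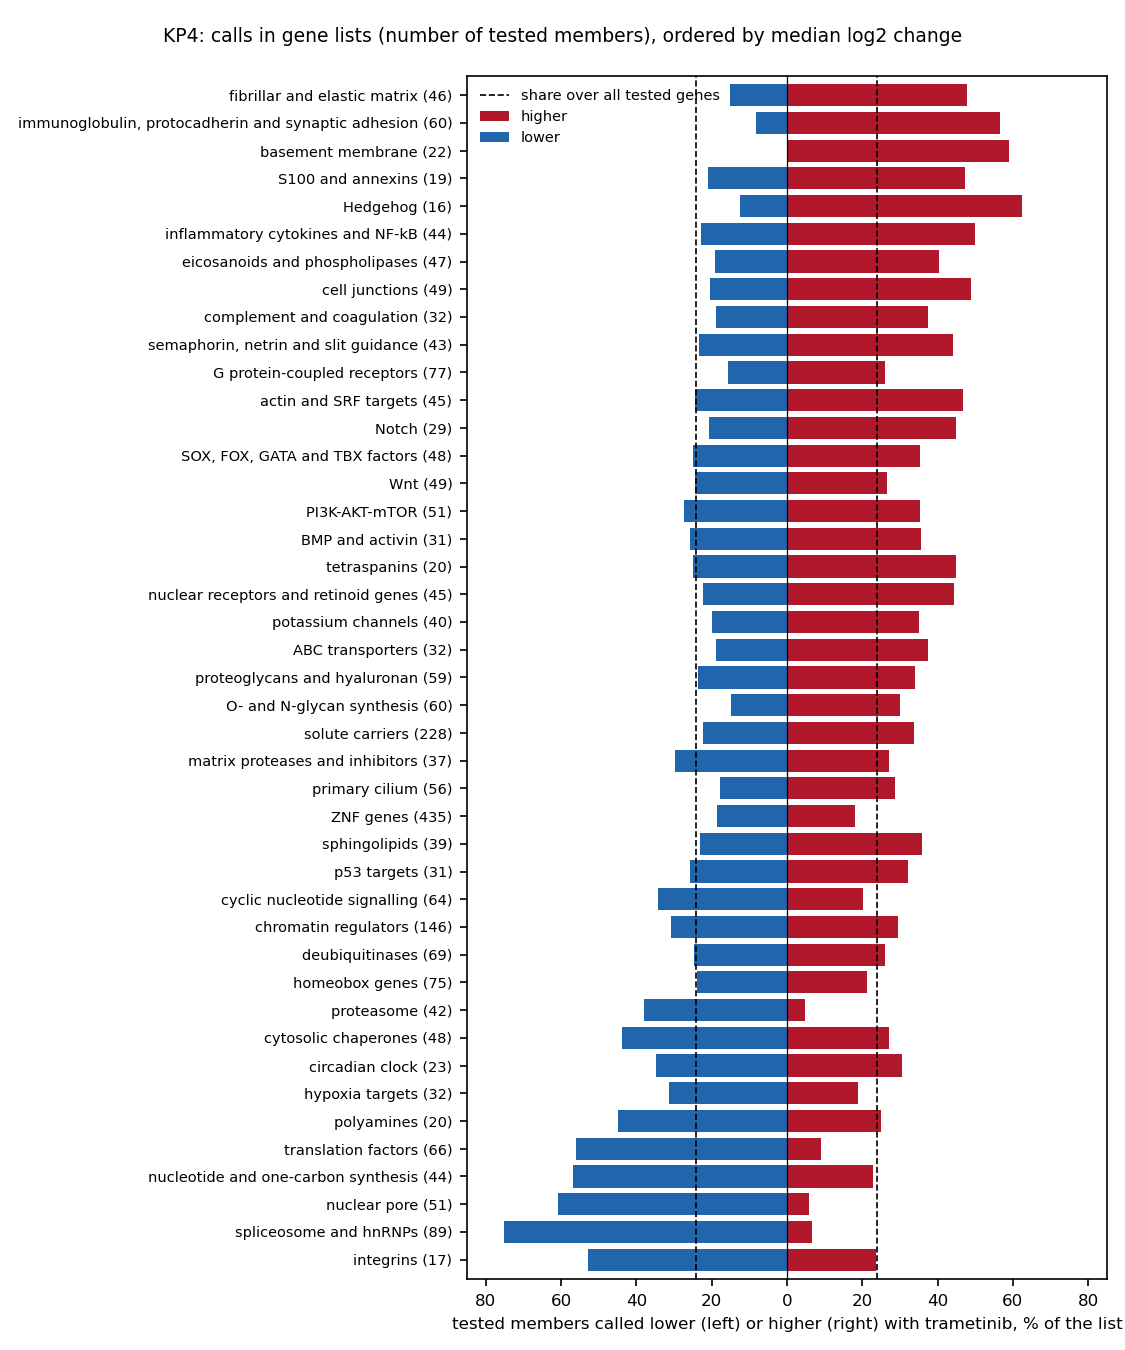
Share of tested members called higher (red, to the right) and lower (blue, to the left) with trametinib in each gene list drawn, with the number of tested members in brackets and the shares over all tested genes, 23.9% higher and 24.1% lower, as dashed lines. Lists are ordered by their median log2 change: matrix, adhesion, basement membrane and Hedgehog lists stand at the top, and splicing, nuclear pore and integrin lists at the bottom.

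Genes for secreted signals changed in both directions. Of 44 tested cytokine and NF-kB genes, 22 were higher and 10 lower, against 23.9% and 24.1% of all genes, and the list's median log2 change was 0.34, against 0.0 over all genes. Members that fell were led by CXCL8 (ENSG00000169429), a chemokine that attracts neutrophils, with 1.69, 0.972 and 1.56 CPM in the trametinib libraries, against 18.8, 20 and 15.4 CPM in the DMSO libraries. The 3 trametinib values lay far under every DMSO value, a log2 change of −3.67 ± 0.18 (SE; edgeR, adjusted p = 1.24e-14). IL11, a cytokine of the interleukin 6 family, had 1.02, 0.785 and 0.779 CPM with trametinib, against 6.38, 7.58 and 7.09 CPM with DMSO, a log2 change of −3.02 ± 0.21 (edgeR, adjusted p = 5.80e-12). LIF, of the same family, fell by 2.12 on the log2 scale. Members that rose included CSF1, the growth factor of macrophages, with 28.2, 28.8 and 29 CPM with trametinib and 7.6, 5.59 and 5.58 CPM with DMSO, a log2 change of 2.20 ± 0.12 (edgeR, adjusted p = 5.29e-12). CCL2, which attracts monocytes, had 144, 135 and 137 CPM with trametinib and 44.8, 41.8 and 41.1 CPM with DMSO, and its log2 change was 1.71 ± 0.06 (edgeR, adjusted p = 1.63e-18). CCL5, a chemokine that interferon also induces, rose by 4.63 on the log2 scale. NFKBIA, which holds NF-kB in the cytoplasm, rose by 0.85 and TNFAIP3, a ubiquitin-editing enzyme, by 1.23 on the log2 scale (edgeR, adjusted p = 2.97e-05 and 4.34e-11). NFKBIE, another inhibitor of NF-kB, had a log2 change of 0.20 that did not pass the test. Among the subunits of NF-kB itself, RELB, REL, NFKB2 and NFKB1 rose by 0.86, 0.42, 0.37 and 0.21, and RELA, with a log2 change of 0.07, did not pass the test.

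Other secreted factors changed as much. STC1, the glycoprotein hormone stanniocalcin, had 10.2, 10.5 and 10.7 CPM in the trametinib libraries, against 156, 158 and 157 CPM in the DMSO libraries, so that no trametinib library came near a DMSO one (log2 change −3.91 ± 0.07, edgeR, adjusted p = 3.17e-24). ANGPTL4, an inhibitor of lipoprotein lipase, averaged 23.3 ± 1.87 CPM with trametinib and 125 ± 2.52 CPM with DMSO (SD, n = 3 each), a log2 change of −2.43 ± 0.10. VEGFA, the main growth factor for blood vessels, averaged 49.1 ± 1.29 CPM with trametinib and 96.7 ± 1.32 CPM with DMSO, a log2 change of −0.98 ± 0.07. The vasodilator peptide gene ADM went the other way, with 23.8, 24.1 and 21.5 CPM with trametinib and 6.77, 6.25 and 6.66 CPM with DMSO and a log2 change of 1.82 ± 0.11 (edgeR, adjusted p = 1.60e-13). STC1, ANGPTL4, VEGFA and ADM all belong to the list of hypoxia targets, of which 6 of 32 tested members were higher and 10 lower (median −0.15). TGFB2, a ligand of the TGF-beta receptors, was low with DMSO and rose 7.84-fold: it had 9.1, 8.71 and 9.72 CPM with trametinib, against 0.99, 1.17 and 1.32 CPM with DMSO. C1QTNF1, a secreted protein with a C1q domain, had 23.9, 23.3 and 22.1 CPM with trametinib, against 4.08, 4.47 and 4.58 CPM with DMSO, with no overlap (log2 change 2.40 ± 0.10, edgeR, adjusted p = 3.06e-16).

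The complement and coagulation list, with 12 of 32 tested members higher and 6 lower and a median log2 change of 0.24, changed in both directions. C1S, a protease of the C1 complex of complement, averaged 27.7 ± 0.347 CPM with trametinib and 9.63 ± 0.614 CPM with DMSO, and SERPING1, the inhibitor of that protease, averaged 8.42 ± 0.229 CPM with trametinib and 1.56 ± 0.452 CPM with DMSO. Both rose, by 1.53 and 2.44 on the log2 scale (edgeR, adjusted p = 3.87e-14 and 6.48e-12). Of the protease-activated receptors, F2R, the thrombin receptor, averaged 38.1 ± 0.658 CPM with trametinib and 77.4 ± 2.27 CPM with DMSO, and F2RL1, a receptor cut by trypsin and tryptase, averaged 75 ± 0.741 CPM with trametinib and 293 ± 8.13 CPM with DMSO. Both fell, with log2 changes of −1.02 ± 0.06 and −1.97 ± 0.12, whereas F2RL2, of the same family, had a log2 change of 0.22 and did not pass the test. TFPI2, an inhibitor of serine proteases, fell by 1.61. F3, the tissue factor that starts coagulation, averaged 4.55 ± 0.23 CPM with trametinib and 4.01 ± 0.657 CPM with DMSO and did not pass the test (adjusted p = 0.36).

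The promoters of 5 genes with large changes are shown because each holds the letters bound by AP-1, a factor family downstream of ERK. The sequences are from RefSeq (GRCh38.p14), 250 bases before to 50 bases after the gene start, in the direction of transcription, and capitals mark the match to TGANTCA, searched on both strands. CXCL8 (chr4:73740319-73740618, plus strand) holds it 137 to 131 bases before the start, IL11 (chr19:55370414-55370713, minus strand) 96 to 90 bases before, PLAUR (chr19:43670120-43670419, minus strand) 186 to 180 bases before, GPNMB (chr7:23246525-23246824, plus strand) 134 to 128 bases before and SLC2A12 (chr6:134052575-134052874, minus strand) 98 to 92 bases before. The first 3 of these genes fell with trametinib, and GPNMB and SLC2A12 rose. They were chosen after their values were seen.
CXCL8: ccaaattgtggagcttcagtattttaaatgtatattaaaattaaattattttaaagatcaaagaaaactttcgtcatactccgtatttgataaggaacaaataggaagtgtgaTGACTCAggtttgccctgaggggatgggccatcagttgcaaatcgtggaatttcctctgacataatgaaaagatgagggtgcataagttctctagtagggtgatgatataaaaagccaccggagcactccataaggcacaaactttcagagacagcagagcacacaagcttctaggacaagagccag
IL11: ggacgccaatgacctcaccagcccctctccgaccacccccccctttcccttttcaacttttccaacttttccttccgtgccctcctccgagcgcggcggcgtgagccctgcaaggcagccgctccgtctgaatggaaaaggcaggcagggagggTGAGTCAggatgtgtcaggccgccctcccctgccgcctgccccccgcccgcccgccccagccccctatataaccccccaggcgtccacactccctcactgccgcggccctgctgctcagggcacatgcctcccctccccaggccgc
PLAUR: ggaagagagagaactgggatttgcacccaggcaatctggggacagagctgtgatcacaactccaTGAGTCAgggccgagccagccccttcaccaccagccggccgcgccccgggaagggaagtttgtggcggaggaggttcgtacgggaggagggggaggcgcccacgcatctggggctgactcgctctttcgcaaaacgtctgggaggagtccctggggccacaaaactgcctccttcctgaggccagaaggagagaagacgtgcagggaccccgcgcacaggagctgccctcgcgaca
GPNMB: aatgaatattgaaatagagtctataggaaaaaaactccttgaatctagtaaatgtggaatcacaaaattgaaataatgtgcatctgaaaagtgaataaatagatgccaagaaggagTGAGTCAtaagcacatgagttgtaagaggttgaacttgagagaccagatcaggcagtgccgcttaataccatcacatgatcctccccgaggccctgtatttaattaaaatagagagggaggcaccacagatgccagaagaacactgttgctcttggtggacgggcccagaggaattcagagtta
SLC2A12: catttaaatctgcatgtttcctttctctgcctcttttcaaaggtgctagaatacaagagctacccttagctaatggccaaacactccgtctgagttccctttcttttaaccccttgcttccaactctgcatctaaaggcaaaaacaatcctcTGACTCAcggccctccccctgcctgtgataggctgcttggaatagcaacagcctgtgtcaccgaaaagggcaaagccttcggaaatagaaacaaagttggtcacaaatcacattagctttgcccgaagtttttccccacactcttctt
A match is a description of letters and not a sign of binding. The motif was present in 7.76% of all 27305 promoters of the table and in 4.38% of the 10702 promoters matched to tested protein-coding genes. It was present in 6.35% of 567 promoters of genes at least 2-fold higher and in 8.8% of 284 promoters of genes at least 2-fold lower. Both shares were above that of the tested genes, and the differences were not tested. Among the 20 largest rises outside the 5 readout lists, 3 of the 18 with a promoter in the table held it, and among the 20 largest falls 2 of 17. Both other motifs searched on both strands were the E-box CACGTG and the TEAD letters GGAATG. The E-box was present in 6.88% of promoters of genes at least 2-fold higher, 9.51% of those at least 2-fold lower and 10.1% of the tested genes, and GGAATG in 12.3%, 11.3% and 10.8% of the same promoters.

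Receptors for signals from outside were among the largest falls. NTSR1 (ENSG00000101188, chromosome 20, 62708837 to 62762771, GRCh38), the neurotensin receptor, had 36.9, 32.8 and 33.5 CPM in the trametinib libraries, against 538, 548 and 566 CPM in the DMSO libraries. All trametinib values lay far under the DMSO values, and the log2 change was −4.0 ± 0.11 (edgeR, adjusted p = 1.01e-10). GPR3, an orphan receptor known to raise cyclic AMP without a ligand, had 0.913, 1.38 and 1.08 CPM with trametinib, against 20.8, 21.8 and 19.9 CPM with DMSO, a log2 change of −4.21 ± 0.16 (edgeR, adjusted p = 2.64e-17). HTR7, a serotonin receptor that also acts through cyclic AMP, averaged 3.58 ± 0.435 CPM with trametinib and 16.9 ± 0.902 CPM with DMSO, a log2 change of −2.24 ± 0.14. The class showed no common fall: of 77 tested G protein-coupled receptors 20 were higher and 12 lower, with a median log2 change of 0.20, or 0.1 over members with at least 60 counts in KP4. Among its rises were GPR155, GPR162 and GPRC5B, by 1.53, 1.42 and 1.28 on the log2 scale.

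Regulators on the inner side of the membrane changed beside the receptors. Of 64 tested genes of cyclic nucleotide signalling 13 were higher and 22 lower. RGS4, which speeds up GTP hydrolysis on G protein alpha subunits, had 4.22, 4.07 and 4.49 CPM with trametinib, against 49.7, 47.9 and 48 CPM with DMSO, and RGS17, of the same family, averaged 7.59 ± 0.0911 CPM with trametinib and 29.8 ± 0.996 CPM with DMSO. Their log2 changes were −3.51 ± 0.14 and −1.97 ± 0.11 (edgeR, adjusted p = 1.14e-10 and 3.71e-14). The family was mixed: RGS20 and RGS3 were also called lower, whereas RGS5, RGS11 and RGS12 rose by 1.38, 1.42 and 0.23. RGS5 did not pass with limma-voom (adjusted p = 0.0522). CREB5, a transcription factor of the CREB family, had 3.62, 3.74 and 4.93 CPM with trametinib, against 35.6, 33.4 and 33.3 CPM with DMSO, a log2 change of −3.06 ± 0.14. ITPKB, the kinase that phosphorylates inositol trisphosphate, fell by 2.51 on the log2 scale, and TRPV2, a cation channel, by 3.37. UNC13A, which primes synaptic vesicles for release in neurons, had 4.15, 4.48 and 3.71 CPM with trametinib, against 82.3, 81.1 and 90.4 CPM with DMSO (log2 change −4.36 ± 0.12, edgeR, adjusted p = 1.19e-18). PTGS2, the inducible cyclooxygenase of prostaglandin synthesis, had 1.19, 1.23 and 1.59 CPM with trametinib, against 18.1, 19 and 18.8 CPM with DMSO, so that the groups lay apart (log2 change −3.80 ± 0.22, edgeR, adjusted p = 3.30e-11). Its list, eicosanoids and phospholipases, had 19 of 47 members higher and 9 lower, with phospholipases C among the rises: PLCB4 rose by 1.27, PLCD1 by 0.94 and PLCD3 by 1.13.

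Potassium channels went both ways, with 14 of 40 tested higher and 8 lower (median 0.08). KCNN4, opened by calcium, had 4.95, 6.09 and 5.3 CPM with trametinib, against 30.6, 30.6 and 34.1 CPM with DMSO, and no trametinib value reached a DMSO value (log2 change −2.55 ± 0.09, edgeR, adjusted p = 1.16e-17). The voltage-gated channels KCND1 and KCNH2 rose, by 1.19 and 1.32 on the log2 scale.

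Many genes of the extracellular matrix rose. Of 22 tested basement membrane genes 13 were higher and none was lower, with a median log2 change of 0.52, and 2 of the 22, COL4A1 among them, had no count in either KP4 group. HSPG2, the core protein of perlecan, had 316, 297 and 294 CPM with trametinib, against 108, 118 and 118 CPM with DMSO, a log2 change of 1.39 ± 0.05 (edgeR, adjusted p = 1.14e-18). LAMB2, a laminin beta chain, averaged 225 ± 5.03 CPM with trametinib and 82.3 ± 3.32 CPM with DMSO, a log2 change of 1.45 ± 0.07. BCAM, a receptor for laminin, had 5.9, 5.34 and 5.86 CPM with trametinib, against 0.594, 0.777 and 0.895 CPM with DMSO, a log2 change of 2.90 ± 0.19 (edgeR, adjusted p = 1.34e-12). All 3 genes were higher in every trametinib library than in any DMSO library.

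Of 46 tested genes of fibrillar and elastic matrix, 22 were higher and 7 lower. The list's median log2 change was 0.76 as fitted, and 0.37 where the 5 members with no count with DMSO were set at their lower bound. COL5A2, a chain of the type V collagen of thin fibrils, had 1206, 1238 and 1227 CPM with trametinib, against 603, 614 and 622 CPM with DMSO, a log2 change of 1.00 ± 0.04 (edgeR, adjusted p = 3.40e-17). COL5A3, another type V chain, rose by 1.98, FBN1, the fibrillin of elastic microfibrils, by 1.44, and THBS1, the adhesive glycoprotein thrombospondin, by 1.60 on the log2 scale. Falls included COL13A1, a collagen that spans the plasma membrane, by 4.94, and LTBP2, a latent TGF-beta binding protein, by 1.43. FN1, fibronectin, averaged 14.7 ± 0.189 CPM with trametinib and 15.3 ± 0.676 CPM with DMSO and did not pass the test (adjusted p = 0.728). Matrix genes outside the collagen and basement membrane lists rose too: SNED1 by 2.73, MEGF6 by 2.79 and ADAMTSL4 by 2.63 on the log2 scale.

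Genes that cut matrix showed no common direction, with 10 of 37 tested higher and 11 lower and a median of 0.04. TIMP1, an inhibitor of matrix metalloproteinases, had 32.4, 32.5 and 35.1 CPM in the trametinib libraries, against 388, 360 and 368 CPM in the DMSO libraries, and this clear separation gave a log2 change of −3.48 ± 0.05 (edgeR, adjusted p = 8.61e-26). PLAUR, the receptor that holds urokinase at the cell surface, had 12.4, 13.5 and 13.4 CPM with trametinib, against 46.1, 51.2 and 49.8 CPM with DMSO, a log2 change of −1.91 ± 0.08 (edgeR, adjusted p = 1.28e-16). Its ligand PLAU, the urokinase itself, went up, with 1117, 1081 and 1102 CPM with trametinib and 643, 646 and 659 CPM with DMSO, a log2 change of 0.76 ± 0.11 (edgeR, adjusted p = 3.55e-04). The metalloproteinases MMP11 and MMP24 rose by 1.21 and 1.75. The collagenase MMP1 had 3 counts over the 3 trametinib libraries and 908 over the 3 DMSO libraries, 315-fold fewer with trametinib (95% interval for counting error 108 to 1531).

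Integrins were the list with the lowest median, −0.22, with 4 of 17 tested members higher and 9 lower. ITGA2, the alpha chain of a collagen receptor, had 29.5, 32.3 and 26.4 CPM with trametinib, against 129, 139 and 137 CPM with DMSO, and ITGB5, a beta chain that binds vitronectin, had 168, 164 and 171 CPM with trametinib, against 421, 449 and 431 CPM with DMSO. Both groups of libraries were well apart, with log2 changes of −2.20 ± 0.17 and −1.37 ± 0.09 (edgeR, adjusted p = 2.95e-06 and 2.79e-07). ITGA7, a laminin receptor chain, fell by 1.43. ITGA10, another collagen receptor chain, fell by 2.64; it lay under the minimum level for named genes and was singled out after its value was seen. ITGB1, the beta chain shared by many integrins, averaged 734 ± 5.71 CPM with trametinib and 906 ± 6.89 CPM with DMSO, a log2 change of −0.31 ± 0.04. Rises included the beta chains ITGB3 (0.84), ITGB4 (0.76) and ITGB8 (0.76).

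Proteoglycan and hyaluronan genes divided, with 20 of 59 tested higher and 14 lower. HAS3, a hyaluronan synthase, had 95.1, 97 and 102 CPM with trametinib, against 429, 426 and 417 CPM with DMSO, a log2 change of −2.11 ± 0.14 (edgeR, adjusted p = 1.60e-06). CHST15, a sulfotransferase of chondroitin sulfate, fell by 1.80 on the log2 scale, and EXTL2, an exostosin-like glycosyltransferase, by 1.34. SULF2, which trims sulfate from heparan sulfate, rose by 1.98. PODXL, the sialomucin podocalyxin, had 37.5, 32.8 and 38.7 CPM with trametinib, against 8.32, 9.4 and 7.59 CPM with DMSO, a log2 change of 2.11 ± 0.11 (edgeR, adjusted p = 1.82e-11).

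More junction genes rose than fell. Of 49 tested junction genes 24 were higher and 10 lower (median 0.25). CDH1 (ENSG00000039068, chromosome 16, 68737225 to 68835548), the E-cadherin of epithelial junctions, had 5.27, 5.16 and 4.45 CPM with trametinib, against 0.594, 0.427 and 0.394 CPM with DMSO. It was low in both groups, yet its 3 trametinib values were above all 3 DMSO values, a log2 change of 3.39 ± 0.24 (edgeR, adjusted p = 6.69e-12). CDH3, the P-cadherin, had 166, 157 and 162 CPM with trametinib, against 54.7, 57.8 and 54.6 CPM with DMSO, a log2 change of 1.54 ± 0.06 (edgeR, adjusted p = 4.05e-17). Tight junction scaffolds followed: CGN, cingulin, averaged 55.4 ± 1.49 CPM with trametinib and 18.4 ± 1.96 CPM with DMSO, and TJP3, of the zonula occludens family, averaged 7.08 ± 0.439 CPM with trametinib and 0.907 ± 0.148 CPM with DMSO. Their log2 changes were 1.60 ± 0.08 and 2.95 ± 0.19. GJA1, the gap junction protein connexin 43, rose by 0.89 on the log2 scale. Falls included JUP, plakoglobin, by 0.76, and CLDN1, a claudin, by 0.40. Beside the rise of CDH1, the 10 ductal epithelial markers summed to 237 to 246 CPM with trametinib and 372 to 383 CPM with DMSO: 4 were higher (CDH1, KRT8, KRT19, MUC1) and 2 lower (KRT18, SOX9), so the markers did not move together. KRT19 passed the test narrowly (edgeR, adjusted p = 0.0486), and so did CDH2, the N-cadherin, among the mesenchymal markers (edgeR, adjusted p = 0.0383). The part of such markers in the rise of CDH1 was not tested. The 8 mesenchymal markers summed to 3313 to 3323 CPM with trametinib and 3819 to 3843 CPM with DMSO, with VIM and ZEB1 lower by 0.23 and 0.33 on the log2 scale and CDH2 higher by 0.41. UPK3B, a uroplakin gene, was the largest rise of the 20 named, with 10.1, 10.5 and 9.87 CPM with trametinib and 0.475, 0.388 and 0.573 CPM with DMSO, a log2 change of 4.38 ± 0.19 (edgeR, adjusted p = 2.89e-16).

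Adhesion molecules best known from the nervous system also rose in many cases: of 60 tested immunoglobulin, protocadherin and synaptic adhesion genes 34 were higher and 5 lower, with a median log2 change of 0.54. L1CAM, a neuronal adhesion molecule of the immunoglobulin class, had 85.8, 85.1 and 89.4 CPM with trametinib, against 28.4, 25.3 and 25.7 CPM with DMSO, a log2 change of 1.71 ± 0.06 (edgeR, adjusted p = 1.14e-18). CNTNAP1, which sits beside the nodes of myelinated axons, averaged 97.8 ± 1.37 CPM with trametinib and 28.6 ± 1.52 CPM with DMSO. Its log2 change was 1.77 ± 0.06. NCAM1, the neural cell adhesion molecule, rose by 0.52 and LRRTM4, a synaptic adhesion protein, by 1.61. PCDHGC3, of the protocadherin gamma cluster, fell by 1.08, and PCDH7 by 0.65. The 6 tested genes of the protocadherin beta cluster were singled out after their values were seen: all were low, and all 6 passed the test upward. PCDHB11 had 0.668, 0.897 and 0.742 CPM with trametinib and 0.0792, 0.194 and 0.179 CPM with DMSO, and PCDHB10, PCDHB11 and PCDHB14 rose by 1.96, 2.30 and 1.76 on the log2 scale. PCDHB9, PCDHB13 and PCDHB16 had log2 changes of 1.30 ± 0.51, 1.28 ± 0.42 and 1.56 ± 0.55. PCDHB9 and PCDHB16 did not pass with DESeq2 (adjusted p = 0.121 and 0.0622). Each of these last 3 lost its call when 1 library was left out: PCDHB9 without DMSO library 2 (0.79), trametinib library 2 (1.34) or trametinib library 3 (1.01), PCDHB13 without DMSO library 1 (1.09), DMSO library 2 (1.08) or trametinib library 2 (0.90), and PCDHB16 without DMSO library 3 (1.04) or trametinib library 1 (1.29). The genes of that cluster are close copies, so reads may have been shared among them.

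Guidance cues are a related class, with 19 of 43 tested members of the semaphorin, netrin and slit list higher and 10 lower (median 0.24). SLIT3, a secreted ligand of Robo receptors, had 30, 33.8 and 31.9 CPM with trametinib, against 6.61, 8.24 and 8.77 CPM with DMSO, a log2 change of 2.01 ± 0.10 (edgeR, adjusted p = 1.55e-14). SEMA3F, a secreted semaphorin, averaged 65.8 ± 2.05 CPM with trametinib and 23.9 ± 0.125 CPM with DMSO, and NTN1, netrin, averaged 187 ± 3.87 CPM with trametinib and 91.3 ± 2.33 CPM with DMSO. They rose by 1.46 and 1.04 on the log2 scale. SEMA5B, singled out after its value was seen, had 103 counts over the 3 trametinib libraries and 2 over the 3 DMSO libraries, a ratio of 49.5 (95% interval for counting error 13.3 to 414). Receptors of these cues changed in both directions. ROBO3 fell by 0.56, UNC5A by 0.62 and NRP1 by 0.34 (edgeR, adjusted p = 2.70e-06, 1.38e-05 and 0.0124), and ROBO4, PLXNA4, PLXNA2 and PLXND1 were also called lower. ROBO1 rose by 0.66 and the semaphorin receptor PLXNC1 by 2.68, and PLXNB1, PLXNA3, PLXNB2 and NEO1 were also called higher, by 0.24 to 0.40.

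Cytoskeletal genes were among those with the largest differences in CPM. RHOB (ENSG00000143878, chromosome 2, 20447074 to 20449445), a small GTPase found on endosomes, had 205, 201 and 198 CPM in the trametinib libraries, against 26.2, 24.7 and 23.8 CPM in the DMSO libraries. The groups were widely apart, with a log2 change of 3.01 ± 0.06 (edgeR, adjusted p = 7.34e-24). MYH9, a non-muscle myosin heavy chain, had 3241, 3243 and 3200 CPM with trametinib, against 1788, 1854 and 1848 CPM with DMSO, a log2 change of 0.82 ± 0.04 (edgeR, adjusted p = 6.26e-14). TNS3, the focal adhesion protein tensin, had 937, 950 and 969 CPM with trametinib, against 272, 271 and 259 CPM with DMSO, a log2 change of 1.83 ± 0.04. MAP2, a microtubule-associated protein typical of neuronal dendrites, had 740, 736 and 724 CPM with trametinib, against 166, 166 and 167 CPM with DMSO, a log2 change of 2.14 ± 0.07. PXN, the focal adhesion adaptor paxillin, moved the opposite way to tensin, with 273, 285 and 286 CPM with trametinib and 837, 841 and 835 CPM with DMSO, a log2 change of −1.57 ± 0.04 (edgeR, adjusted p = 3.20e-21). CAVIN1, a coat protein of caveolae, rose by 0.98, and TPM1, a tropomyosin, by 1.01. NES, the intermediate filament nestin of progenitor cells, had 0.878, 0.897 and 1.04 CPM with trametinib, against 6.54, 7.15 and 6.44 CPM with DMSO, a log2 change of −2.83 ± 0.22.

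Of 45 tested actin genes and targets of the serum response factor, 21 were higher and 11 lower (median 0.19). SRF itself averaged 120 ± 2 CPM with trametinib and 118 ± 2.63 CPM with DMSO and did not pass the test (adjusted p = 0.618). FHL1 and FHL2, LIM domain proteins, fell by 1.18 and 1.00 on the log2 scale, and the actin-binding protein TAGLN2 rose by 0.73. Among the exchange factors for Rac, TIAM1 averaged 104 ± 2.69 CPM with trametinib and 248 ± 5.09 CPM with DMSO, DOCK4 averaged 18.5 ± 0.336 CPM with trametinib and 62.4 ± 1.35 CPM with DMSO, and TIAM2 averaged 24.4 ± 1.14 CPM with trametinib and 9.25 ± 0.286 CPM with DMSO. TIAM1 and DOCK4 fell by 1.26 and 1.75, while TIAM2 rose by 1.4. Of 19 S100 and annexin genes 9 were higher and 4 lower: ANXA4, ANXA6 and S100A10 rose by 0.89, 0.94 and 0.68, and ANXA5, S100A2 and S100A11 fell by 0.36, 0.84 and 0.28.

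**Figure D3:**
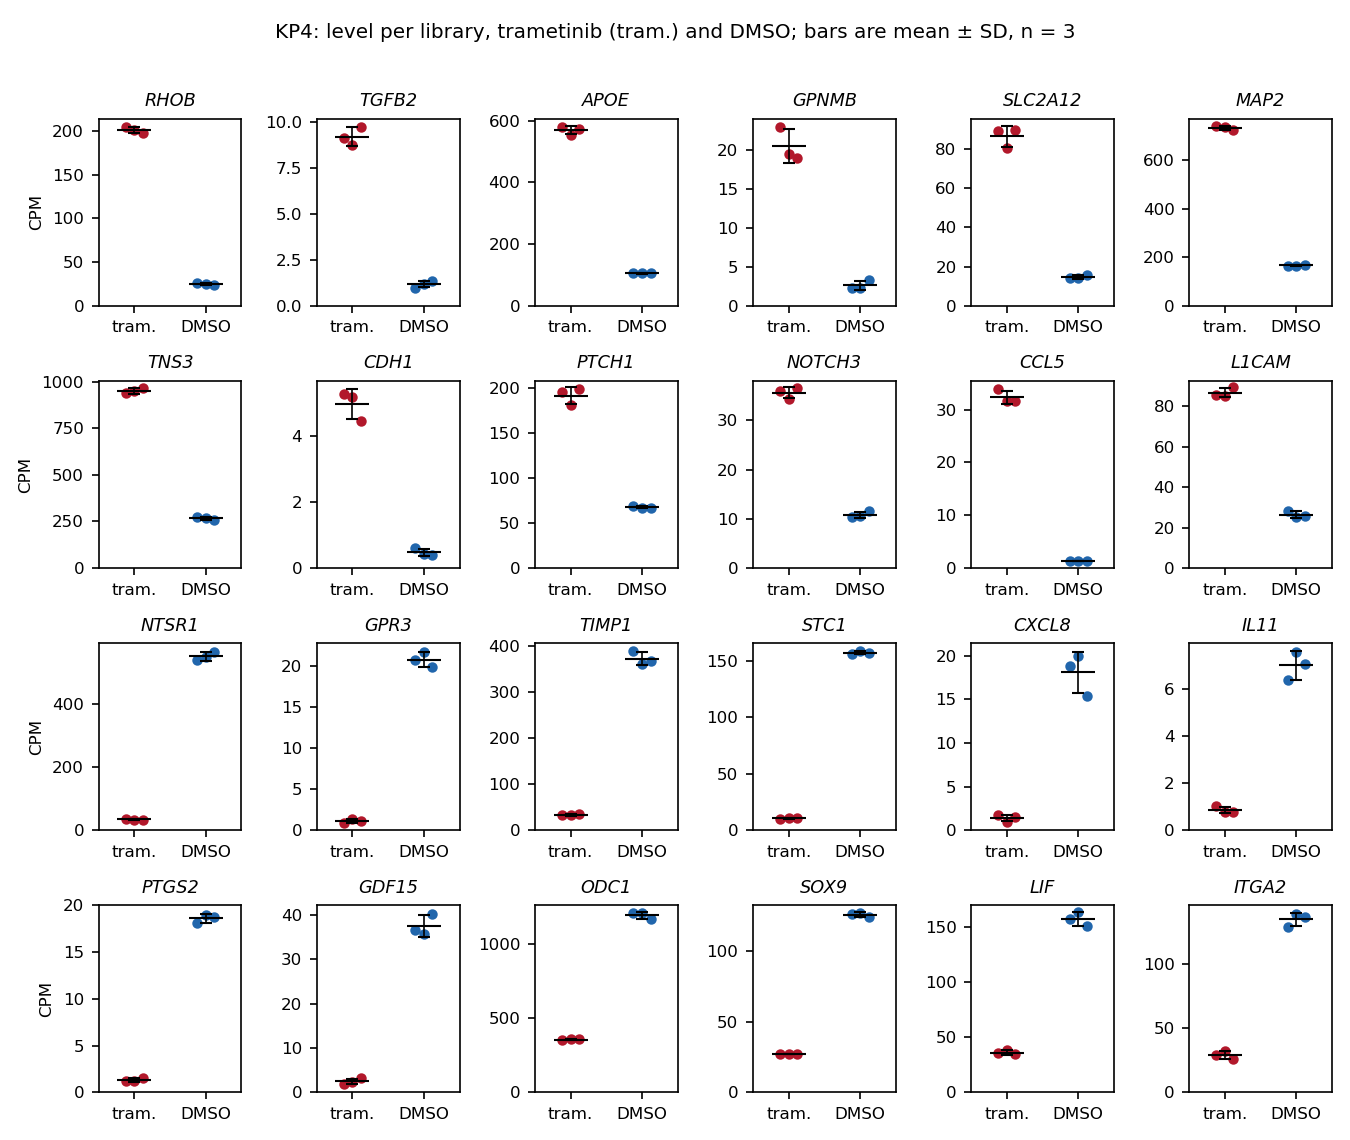
Level (CPM) of 24 named genes in each KP4 library, trametinib (red, left in each panel) and DMSO (blue, right), with the mean ± SD of the 3 libraries as bars; each panel has its own axis from 0. In all 24 panels the groups are apart: the 12 genes of the upper rows, such as RHOB and MAP2, are higher with trametinib and the 12 of the lower rows, such as NTSR1 and TIMP1, are lower.

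Pathways of development gave the following picture, ordered from ligands to targets. In the Hedgehog list 10 of 16 tested members were higher and 2 lower, with a median log2 change of 0.39. The ligand gene SHH was low, with 0.351, 0.224 and 0.111 CPM with trametinib and 0.515, 0.699 and 0.787 CPM with DMSO, and fell by 1.52 (edgeR, adjusted p = 0.0103); without trametinib library 3 its log2 change was −1.20 and no longer passed. SMO, the signal transducer, rose by 0.38; SMO and SHH were singled out after their values were seen. PTCH1, the receptor that is itself a target of the pathway, had 196, 181 and 199 CPM with trametinib, against 69.4, 67.3 and 67.1 CPM with DMSO, with every trametinib value higher (log2 change 1.5 ± 0.05, edgeR, adjusted p = 6.36e-19). Of the 3 GLI transcription factors, GLI1 averaged 91.9 ± 3.31 CPM with trametinib and 69.6 ± 1.5 CPM with DMSO, GLI2 averaged 20.6 ± 1.53 CPM with trametinib and 38.3 ± 0.959 CPM with DMSO, and GLI3 averaged 16.9 ± 0.593 CPM with trametinib and 11.6 ± 0.387 CPM with DMSO. GLI1 and GLI3 rose by 0.40 and 0.54 and GLI2 fell by 0.90 on the log2 scale. Genes of the primary cilium, where Hedgehog signals are received, showed little common movement, with 16 of 56 higher and 10 lower (median 0.03), or 6 lower without trametinib library 1.

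In the Notch list 13 of 29 members were higher and 6 lower (median 0.17). The ligand JAG2 rose by 0.84 on the log2 scale, whereas the ligands JAG1 and DLL4 fell by 0.31 and 1.65. Among receptors, NOTCH3 had 35.9, 34.4 and 36.5 CPM with trametinib, against 10.4, 10.5 and 11.5 CPM with DMSO. This clear separation gave a log2 change of 1.72 ± 0.09 (edgeR, adjusted p = 4.51e-14). NOTCH2, the receptor with the most counts in KP4, rose by 0.68 and NOTCH1 by 0.21. NOTCH4, with a log2 change of −0.23, did not pass the test. The target genes parted: HES4 averaged 23.8 ± 0.216 CPM with trametinib and 7.94 ± 1.05 CPM with DMSO, whereas HES1 averaged 20.7 ± 0.831 CPM with trametinib and 34.4 ± 1.46 CPM with DMSO and NRARP averaged 10.2 ± 1.47 CPM with trametinib and 18.2 ± 1.3 CPM with DMSO. HES4 rose by 1.58 and HES1 and NRARP fell by 0.74 and 0.83. MFNG, a glycosyltransferase that modifies Notch, fell by 1.33.

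Wnt genes were balanced, with 13 of 49 higher and 12 lower. WNT7B, a ligand, had 15.3, 19.8 and 16.4 CPM with trametinib, against 79, 72.2 and 80.8 CPM with DMSO, a log2 change of −2.17 ± 0.17 (edgeR, adjusted p = 1.66e-06). WNT4, another ligand, rose by 1.96 on the log2 scale. Of the genes of Wnt export, PORCN, which adds the lipid, fell by 1.13, and WLS, the carrier to the surface, by 0.92. Receptors changed in both directions. FZD2 and ROR1 rose by 0.90 and 1.74, and FZD3, FZD6 and LRP5 were also called higher. FZD8, LGR4 and ROR2 fell by 0.88, 0.88 and 0.39. AXIN2, a common target gene, rose by 0.56, whereas NKD1 and TCF7 of the same list fell by 0.64 and 0.83. In the BMP and activin list 11 of 31 were higher and 8 lower (median 0.10). FSTL3, a secreted antagonist of activin, had 189, 198 and 189 CPM with trametinib, against 63.5, 65.3 and 63.2 CPM with DMSO, a log2 change of 1.59 ± 0.05 (edgeR, adjusted p = 8.94e-20). The ligands BMP5 and BMP6 moved apart, by 1.08 and −0.77. NOG, the BMP antagonist noggin, fell by 0.96, and SMAD7, an inhibitory SMAD, averaged 11.2 ± 0.521 CPM with trametinib and 25 ± 0.512 CPM with DMSO and fell by 1.16. SMAD6, the other inhibitory SMAD, rose by 0.63, so the inhibitory SMADs parted. The ID genes ID2 and ID3 rose by 0.88 and 0.66. ID1, with a log2 change of −0.27, did not pass the test.

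Among transcription factors of the SOX, FOX, GATA and TBX families 17 of 48 were higher and 12 lower (median 0.16). SOX9 (ENSG00000125398, chromosome 17, 72121020 to 72126420), a factor of duct cells and progenitors in the pancreas, had 27.2, 27.4 and 27 CPM in the trametinib libraries, against 126, 127 and 124 CPM in the DMSO libraries. Replicates differed little and the groups were far apart, a log2 change of −2.21 ± 0.05 (edgeR, adjusted p = 8.31e-22). FOXA2, a pioneer factor of endoderm, averaged 5.58 ± 0.286 CPM with trametinib and 13.9 ± 0.954 CPM with DMSO and fell by 1.32. SOX18, a factor known from endothelium, averaged 13.8 ± 1.25 CPM with trametinib and 3.47 ± 0.469 CPM with DMSO and rose by 1.99, beside endothelial markers whose summed level is given above and of which none passed the test. GATA6, a factor of pancreatic and gut endoderm, rose by 0.44. Homeobox genes as a class were near the background, with 16 of 75 higher and 18 lower (median −0.06): HHEX and HOXA5 fell by 0.86 and 0.73. The 435 tested zinc finger (ZNF) genes gave 79 higher and 81 lower (median 0.01), so that 36.8% were called, against 48.1% of all genes. Of 45 nuclear receptors and retinoid genes 20 were higher and 10 lower: ALDH1A3, which makes retinoic acid, averaged 44.5 ± 0.788 CPM with trametinib and 19.5 ± 0.224 CPM with DMSO, RDH10, which makes its precursor, rose by 0.97, and CYP26B1, which degrades retinoic acid, fell by 0.95. ALDH1A3 rose by 1.19. The orphan receptors NR4A1 and NR4A2 fell by 0.46 and 1.5, whereas NR4A3, of the same family, rose by 0.43.

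Of 23 circadian clock genes 7 were higher and 8 lower (median −0.11), and the 3 period genes did not move as a group. PER2 had 4.85, 4.04 and 4.97 CPM with trametinib, against 15.7, 15.3 and 12.9 CPM with DMSO, a log2 change of −1.66 ± 0.13 (edgeR, adjusted p = 4.40e-11). PER3 averaged 38.7 ± 1.68 CPM with trametinib and 20.3 ± 0.775 CPM with DMSO and rose by 0.93, and PER1 rose by 0.46. BHLHE40, a repressor in the clock that also answers to other signals, averaged 150 ± 2.18 CPM with trametinib and 334 ± 8.07 CPM with DMSO, a log2 change of −1.15 ± 0.06. DBP, an output factor of the clock, rose by 1.86. All libraries were taken at a single time, 48 h.

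Metabolic genes are given by pathway. In the polyamine list 5 of 20 were higher and 9 lower (median −0.17). ODC1 (ENSG00000115758, chromosome 2, 10439968 to 10448504), the rate-limiting enzyme of polyamine synthesis, had 351, 358 and 357 CPM in the trametinib libraries, against 1207, 1208 and 1168 CPM in the DMSO libraries, with no overlap and a log2 change of −1.75 ± 0.05 (edgeR, adjusted p = 3.73e-20). Enzymes of polyamine breakdown parted: SMOX, which oxidises spermine, averaged 12.7 ± 1.89 CPM with trametinib and 42.2 ± 0.448 CPM with DMSO, and SAT1, which acetylates spermidine and spermine, averaged 80.5 ± 4.22 CPM with trametinib and 215 ± 5.82 CPM with DMSO. Both fell, with log2 changes of −1.74 ± 0.09 and −1.42 ± 0.09, whereas PAOX, the peroxisomal polyamine oxidase, rose by 0.72. SAT2, a related acetyltransferase, rose by 0.87. Of 44 genes of nucleotide and one-carbon synthesis 10 were higher and 25 lower (median −0.20). SHMT2, the mitochondrial serine hydroxymethyltransferase, averaged 140 ± 1.32 CPM with trametinib and 222 ± 0.606 CPM with DMSO and fell by 0.67. MTHFD2, its neighbour in the mitochondrial folate pathway, fell by 0.39, CAD, the first enzyme of pyrimidine synthesis, by 0.24, and SLC19A1, the reduced folate carrier, by 0.60. The rise of CMPK2, by 4.72, belongs to a gene that interferon induces.

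Transporters for sugars, phosphate and lipids changed strongly within lists of mixed direction. Of 228 tested solute carriers 77 were higher and 51 lower (median 0.04). SLC2A12, a glucose transporter, had 89.1, 80.3 and 89.3 CPM with trametinib, against 14, 14.3 and 15.9 CPM with DMSO, a log2 change of 2.55 ± 0.07 (edgeR, adjusted p = 1.45e-20). SLC2A8, an intracellular glucose transporter, had 241, 240 and 237 CPM with trametinib, against 50.3, 52.7 and 53.8 CPM with DMSO, a log2 change of 2.19 ± 0.07. SLC2A3, the glucose transporter best known from neurons, averaged 55.3 ± 2.92 CPM with trametinib and 194 ± 4.38 CPM with DMSO and fell by 1.81, so the sugar transporters parted. SLC20A1, a phosphate transporter, fell by 1.35. APOE (ENSG00000130203, chromosome 19, 44905754 to 44909393), the lipid-carrying apolipoprotein, had 580, 554 and 574 CPM with trametinib, against 105, 106 and 108 CPM with DMSO, a log2 change of 2.42 ± 0.11 (edgeR, adjusted p = 1.50e-08). The cholesterol exporters ABCA1 and ABCG1 rose with it, by 1.33 and 0.93 (edgeR, adjusted p = 1.77e-12 and 3.66e-07), within an ABC transporter list of 12 of 32 higher and 6 lower. ABCC3, an exporter of organic anions, fell by 1.05.

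Of 39 sphingolipid genes 14 were higher and 9 lower (median 0.01). UGCG, the enzyme that makes glucosylceramide, averaged 133 ± 3.29 CPM with trametinib and 53.8 ± 1.84 CPM with DMSO, and CERS4, a ceramide synthase, averaged 29.1 ± 0.805 CPM with trametinib and 8.4 ± 0.471 CPM with DMSO. They rose by 1.31 and 1.79 on the log2 scale. A4GALT, which makes the globoside Gb3, rose by 1.24. B4GALT6, which makes lactosylceramide, fell by 1.53, whereas B4GALT5, which makes it too, rose by 0.37. SPHK1, which makes sphingosine 1-phosphate, averaged 13.9 ± 0.585 CPM with trametinib and 28.7 ± 1.3 CPM with DMSO and fell by 1.05. In O- and N-glycan synthesis 18 of 60 were higher and 9 lower (median 0.07), or 5 lower when any 1 KP4 library other than trametinib 2 was left out: GCNT2, a branching enzyme, rose by 1.33, GALNT6, which starts O-glycans, by 0.86, and GALNT14, of the same family, fell by 0.83. ALDH3B1, an aldehyde dehydrogenase, had 8.26, 8.89 and 8.9 CPM with trametinib, against 0.871, 1.17 and 0.931 CPM with DMSO, a log2 change of 3.13 ± 0.18. ACOX2, a peroxisomal oxidase of branched fatty acids and bile acid intermediates, had 0.211, 0.299 and 0.89 CPM with trametinib, against 7.25, 6.99 and 5.55 CPM with DMSO, a log2 change of −3.81 ± 0.26. TXNRD1, the cytosolic thioredoxin reductase, had 3209, 3173 and 3242 CPM with trametinib, against 2043, 2033 and 2035 CPM with DMSO: the change was small in ratio, at 0.66 ± 0.03, but large in CPM (edgeR, adjusted p = 1.03e-15).

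The machinery of gene expression fell by small amounts in many genes at once. Of 89 tested spliceosome and hnRNP genes 6 were higher and 67 lower, against 24.1% of all genes lower, with a median log2 change of −0.21. The largest falls named in that list were PRPF38B, a pre-mRNA splicing factor, with 57.9, 56.4 and 53.6 CPM with trametinib, against 87.1, 87.6 and 85.8 CPM with DMSO (log2 change −0.63 ± 0.06), SNRPB, a core protein of spliceosomal snRNPs, by 0.60, and DDX46, a helicase of spliceosome assembly, by 0.48. Exceptions included the splicing regulators HNRNPH2, RBFOX2 and MBNL2, which rose by 0.38, 0.29 and 0.26. Of 51 nuclear pore and transport genes 3 were higher (1 without trametinib library 3) and 31 lower (median −0.21). SEH1L, a nucleoporin, averaged 71.2 ± 2.09 CPM with trametinib and 107 ± 3.03 CPM with DMSO and fell by 0.58, and NUP50 and NUP54 fell by 0.50 and 0.45. Of 66 translation factors 6 were higher and 37 lower (median −0.19). EIF4EBP1, which binds the cap-binding protein and holds translation back, averaged 47 ± 0.661 CPM with trametinib and 103 ± 0.633 CPM with DMSO and fell by 1.13; EIF2B2, a subunit of the exchange factor for eIF2, fell by 0.81 and EIF5 by 0.59. EEF1A2, an elongation factor isoform typical of muscle and neurons, had 421, 425 and 415 CPM with trametinib, against 175, 175 and 170 CPM with DMSO, and rose by 1.28 (edgeR, adjusted p = 1.89e-17).

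Protein degradation and folding come next. Of 42 proteasome genes 2 were higher and 16 lower (median −0.08). Without trametinib library 1 the proteasome genes lower numbered 10, and 1 was higher without DMSO library 1 or trametinib library 3, against 4 in the fit on KP4 libraries alone. POMP, which helps to assemble the core particle, fell by 0.68 on the log2 scale. NFE2L1, the factor that drives proteasome genes, averaged 451 ± 5.43 CPM with trametinib and 377 ± 4.06 CPM with DMSO and rose by 0.26. Of 48 cytosolic chaperones 13 were higher and 21 lower (median −0.10). HSPB1, the small heat shock protein HSP27, had 559, 581 and 566 CPM with trametinib, against 215, 206 and 212 CPM with DMSO, a log2 change of 1.43 ± 0.08 (edgeR, adjusted p = 1.02e-08). HSPA8, the constitutive HSC70, averaged 2164 ± 15.9 CPM with trametinib and 2514 ± 10.9 CPM with DMSO and fell by 0.22, and PFDN2, a prefoldin subunit, by 0.79. Deubiquitinases were near the background, with 18 of 69 higher and 17 lower. Of 146 chromatin regulators 43 were higher and 45 lower (median −0.01), so that 60.3% were called, against 48.1% of all genes: EZH2, the methyltransferase of Polycomb complexes, fell by 0.23, KDM6B, a demethylase of the mark it sets, rose by 0.32, and HDAC4 fell by 0.78. The mitochondrial ribosomal RNA gene MT-RNR2 had 5517, 5592 and 5720 CPM with trametinib, against 2982, 3122 and 2973 CPM with DMSO, a log2 change of 0.89 ± 0.04, beside the higher mitochondrial share of counts given above.

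**Figure D4:**
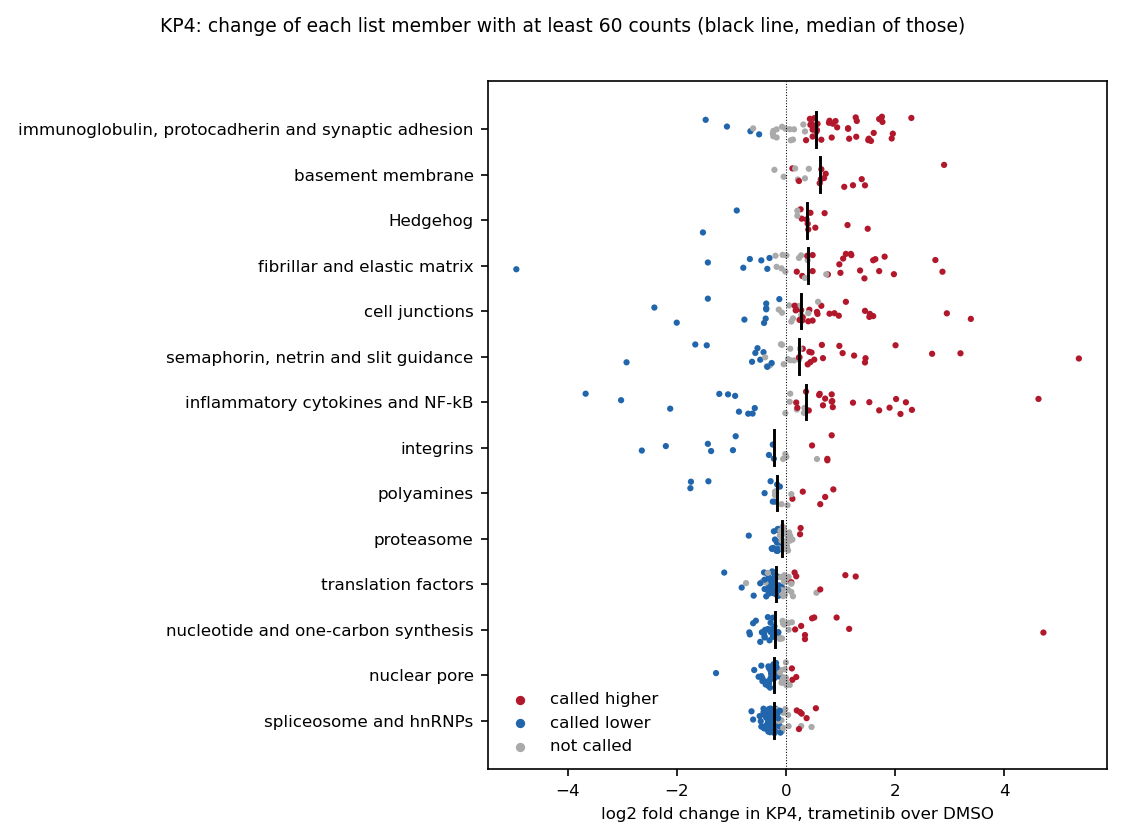
Log2 fold change in KP4 (horizontal axis, trametinib over DMSO) of each member with at least 60 counts in 14 of the lists, red where called higher, blue where called lower and grey where not called; the black line is the median of the members drawn. Most members of the spliceosome, nuclear pore, translation and proteasome lists lie close together near 0, with medians just left of it. Exceptions include 2 translation factors at least 2-fold higher, 1 at least 2-fold lower, and IPO4 of the nuclear pore list at −1.28. Members of the adhesion, matrix, guidance and cytokine lists spread over several log2 units with medians right of 0.

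Signalling lists close to growth control were mixed. Of 51 genes of the PI3K-AKT-mTOR pathway 18 were higher and 14 lower (median 0.10). PIK3IP1, an inhibitor of PI3K, averaged 6.53 ± 1.34 CPM with trametinib and 1.38 ± 0.28 CPM with DMSO, DEPTOR, an inhibitor of mTOR, averaged 13.3 ± 2.08 CPM with trametinib and 4.39 ± 0.629 CPM with DMSO, and PIK3R3, a regulatory subunit of PI3K, averaged 112 ± 3.21 CPM with trametinib and 47.7 ± 2.85 CPM with DMSO. All 3 rose, by 2.25, 1.59 and 1.23 on the log2 scale. The pseudokinase genes TRIB1 and TRIB2 fell by 2.02 and 1.19. The adaptor IRS2 averaged 7.25 ± 0.394 CPM with trametinib and 6.06 ± 0.445 CPM with DMSO and did not pass the test (adjusted p = 0.119). SHC2, an adaptor of receptor tyrosine kinases, had 32, 27.8 and 26.5 CPM with trametinib, against 4.95, 4.86 and 5.98 CPM with DMSO, a log2 change of 2.45 ± 0.11. RRAD, a small GTPase that inhibits calcium channels, had 6.18, 7.66 and 7.05 CPM with trametinib, against 1.15, 0.855 and 1.25 CPM with DMSO, a log2 change of 2.67 ± 0.19. Of 31 p53 targets 10 were higher and 8 lower (median 0.0): SESN2 fell by 0.80 and PLK3 by 1.22, TP53INP1 rose by 1.69, and MDM2, the classical target, averaged 83.9 ± 4.21 CPM with trametinib and 86.2 ± 1.37 CPM with DMSO and did not pass the test (adjusted p = 0.59). Of 20 tetraspanins 9 were higher and 5 lower (median 0.09), and CD82 and TSPAN5 fell by 0.93 and 0.90.

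Several more of the 20 largest rises and 20 largest falls outside the readout lists remain. GPNMB, a transmembrane glycoprotein of melanosomes and macrophages, had 23, 19.5 and 19 CPM with trametinib, against 2.3, 2.33 and 3.26 CPM with DMSO, with trametinib 1 the highest and no overlap (log2 change 2.95 ± 0.14, edgeR, adjusted p = 1.93e-15). CLIC3, a chloride intracellular channel protein, rose by 3.36, VWA5B2 by 3.24, TMEM130 by 2.84, TRANK1 by 2.64 and ENTPD2, which hydrolyses extracellular ATP, by 2.42. GDF15, a stress cytokine, fell by 3.92, BCL2A1, an anti-apoptotic protein of the BCL2 family, by 3.05, CITED4 by 2.83, PLEK2 by 2.77 and MYH15 by 2.73.

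KP4 and MiaPaca2 answered trametinib in broadly the same direction, with differences in size for many genes. In MiaPaca2, 64.0% of the tested genes passed the test, with 34.4% higher and 29.7% lower. Of the 3863 genes higher in KP4, 3057 (79.1%) were also higher in MiaPaca2, which is 55.1% of MiaPaca2's rises, and of the 3890 genes lower in KP4, 2729 (70.2%) were also lower in MiaPaca2, which is 57.0% of its falls. Opposite calls were found for 180 genes higher in KP4 and lower in MiaPaca2 and for 262 genes lower in KP4 and higher in MiaPaca2. The test of the difference between the responses passed for 5764 genes (35.7%), including all 442 with opposite calls. With the difference taken as the log2 change in KP4 minus that in MiaPaca2, the genes that rose in KP4 had a positive difference in 578 cases, where the KP4 change was the higher one, and a negative difference in 1167. The genes that fell in KP4 had a negative difference in 874 cases and a positive one in 1012. MiaPaca2 DMSO library 2 stood apart from the other DMSO libraries of that line, and without it the test of the difference passed for 6743 genes.

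Among the genes named above, those with opposite calls give the clearest differences. PODXL, up in KP4, averaged 224 ± 4.58 CPM with trametinib and 596 ± 58.9 CPM with DMSO in MiaPaca2, and the log2 change in KP4 minus that in MiaPaca2 was 3.52 ± 0.12 (edgeR, adjusted p = 3.03e-13). ALDH1A3 differed by 2.5 ± 0.10, ROR1 by 2.25 ± 0.19, ITGB4 by 2.10 ± 0.08 and BCAM by 3.09 ± 0.19 in the same sense, higher in KP4 and lower in MiaPaca2. In the other sense, LIF averaged 73 ± 2.71 CPM with trametinib and 55.4 ± 10.9 CPM with DMSO in MiaPaca2, and its difference was −2.52 ± 0.14 (edgeR, adjusted p = 6.63e-09). CD82 differed by −2.02 ± 0.12, SMAD7 by −1.91 ± 0.15, SAT1 by −1.81 ± 0.13, SPHK1 by −1.80 ± 0.13, SESN2 by −1.67 ± 0.18, CLDN1 by −1.60 ± 0.09, JUP by −1.21 ± 0.07 and HES1 by −1.05 ± 0.12. The size of a change in the same direction differed for CXCL8, whose log2 change was −3.67 in KP4 and −0.63 in MiaPaca2 (difference −3.04 ± 0.23, edgeR, adjusted p = 1.71e-10), and for UPK3B, with 4.38 in KP4 and 1.53 in MiaPaca2 (difference 2.85 ± 0.23). EEF1A2 rose in KP4 and had a log2 change of −0.03 in MiaPaca2 that did not pass the test (difference 1.31 ± 0.06). No difference was detected for RHOB and COL13A1, which changed by 3.01 in KP4 and 3.13 in MiaPaca2 and by −4.94 in KP4 and −4.97 in MiaPaca2, with differences of −0.12 ± 0.08 and 0.03 ± 0.56 (edgeR, adjusted p = 0.299 and 0.987).

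**Figure D5:**
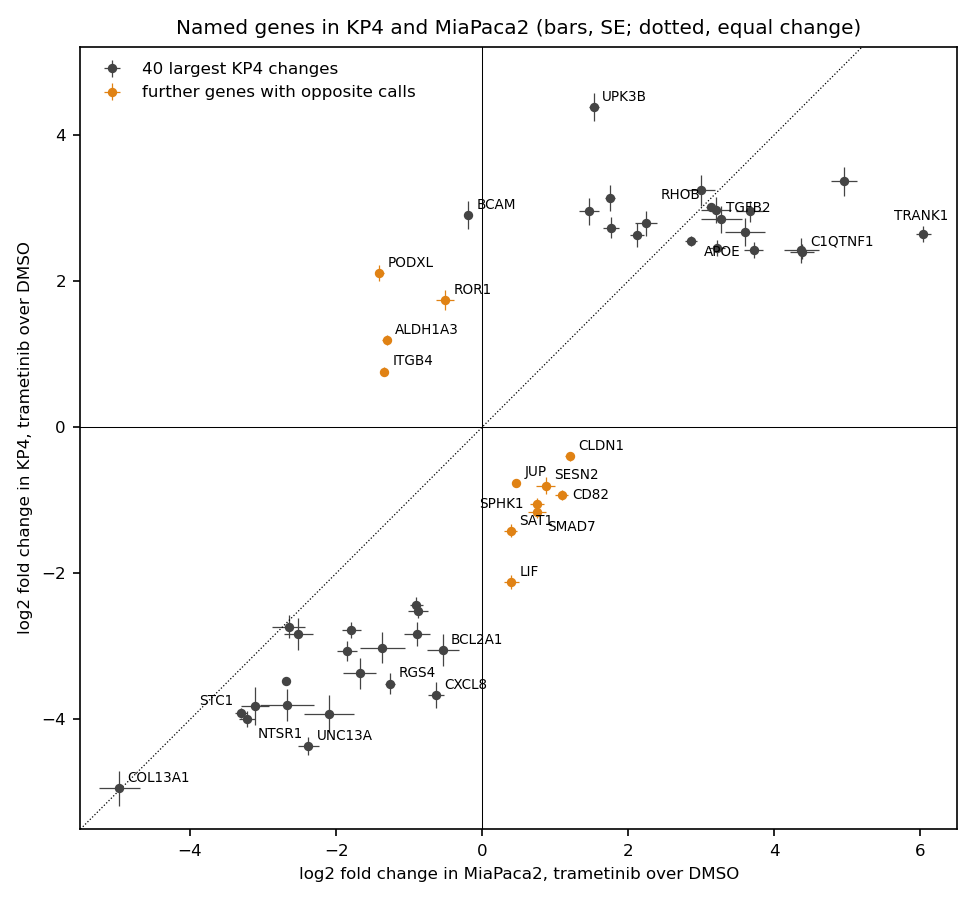
Log2 fold change (trametinib over DMSO) in KP4 (vertical axis) against that in MiaPaca2 (horizontal axis) for the 40 largest KP4 changes outside the readout lists (grey) and 12 further named genes with opposite calls (orange), with SE bars; the dotted line marks equal changes. Nearly all grey points lie in the same quadrant for both lines, whereas PODXL, ALDH1A3, ROR1 and ITGB4 are higher in KP4 and lower in MiaPaca2, and LIF, CD82 and SMAD7 the reverse.

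The list medians of both lines can be set side by side. The median log2 change of the basement membrane list was 0.52 in KP4 and 0.83 in MiaPaca2, that of the immunoglobulin and protocadherin adhesion list 0.54 in KP4 and 0.99 in MiaPaca2, and that of the cytokine list 0.34 in KP4 and 1.1 in MiaPaca2. The spliceosome list had a median of −0.21 in KP4 and −0.45 in MiaPaca2. For integrins the medians were −0.22 in KP4 and −0.06 in MiaPaca2. These medians were not tested against each other.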

How the data were processed

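RNA-seq was made of KP4 and MiaPaca2 cells with trametinib or DMSO, 3 libraries each. The deposited table holds raw counts per gene from the authors, aligned with STAR to GRCh38 (hg38), per the submitters' processing notes, which also name DESeq2; the program and annotation used for counting, and its strand setting, are not stated there. All 12 columns were matched to samples by name, and gene names and positions are from GENCODE (58735 of 58735 IDs matched). From the counts, edgeR 4.0.16 (R 4.3.3; filterByExpr, TMM, glmQLFit robust, glmQLFTest) was fitted on all 12 libraries with a mean per group, and p-values were adjusted by Benjamini-Hochberg over 16133 genes (threshold 0.05). The biological coefficient of variation was 5.47%. Total counts per library were 20293688 to 28018129. SE are the log2 change divided by the root of the F statistic. Counting intervals are exact at 95% and cover counting error only, as does the floor of 3 counts over a group. CPM are counts over TMM-scaled library totals.

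Named genes passed the test in KP4, had non-overlapping groups and reached 5 CPM in the higher group: the 3 largest rises and falls of each list, the 20 largest protein-coding rises and falls outside the 5 readout lists, the 10 largest CPM differences among those changed at least 1.5-fold, and the 6 largest and 6 smallest differences between lines. A few anchor genes were added whatever their values. Members and lists were chosen with earlier results of these data known, so lists carry no test of their own. Alternatives were RLE size factors, library size only, no filter, a strict filter, DESeq2 1.42.0, limma-voom (limma 3.58.1), no robust shrinkage, KP4 libraries only, a replicate block and leaving out each library. The procedure was also run on simulated counts with the same spread for every gene and library. Those counts lack the wider spread of the MiaPaca2 DMSO libraries, and the outcome is not given here. A few genes and 1 list are not reported here.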

Additional observations from a re-analysis of the deposited data

Results flagged for a closer look

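The responses of 12 genes differed between the lines by the interaction test (edgeR, adjusted p over all tested genes) and were the 6 largest and 6 smallest differences among genes that reached a mean of 5 CPM in some group and lay outside the readout lists. Of these PODXL was well counted in KP4: it had 2990 counts over the trametinib libraries and 664 over the DMSO libraries there, and the difference had an adjusted p of 3.03e-13.

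The other 11 were near the low end of detection in KP4, so counts over 3 libraries are given in place of a fold. IGFN1 had 1 count with trametinib and 3 with DMSO in KP4, whereas MiaPaca2 had 45.6, 44.7 and 49.1 CPM with trametinib and 0, 0 and 0.0443 CPM with DMSO (adjusted p = 4.69e-04). CHI3L2 had 15 counts with trametinib and 71 with DMSO in KP4 and a log2 change of 5.26 in MiaPaca2 (adjusted p = 1.39e-10). KLHDC7B had 57 counts with trametinib and 52 with DMSO in KP4 and a log2 change of 5.53 in MiaPaca2 (adjusted p = 1.08e-07). RASGRP3 had 63 counts with trametinib and 31 with DMSO in KP4 and a log2 change of 6.18 in MiaPaca2 (adjusted p = 7.87e-07). C3, the central complement component, had 71 counts with trametinib and 82 with DMSO in KP4, while its log2 change in MiaPaca2 was 4.81 (adjusted p = 1.31e-09). TNS4 had 25 counts with trametinib and 25 with DMSO in KP4 and a log2 change of −4.15 in MiaPaca2 (adjusted p = 2.56e-05). P2RY6 had 17 counts with trametinib and 7 with DMSO in KP4 and a log2 change of −2.26 in MiaPaca2 (adjusted p = 8.57e-04).

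The other 4 lost the call when 1 library was left out. CDA, with 0 counts with trametinib and 6 with DMSO in KP4, had an adjusted p of 0.0157, and 0.13 without KP4 DMSO library 2. RSPO4, with 9 counts with trametinib and 0 with DMSO, had an adjusted p of 0.0394, and 0.0664 to 0.196 without KP4 trametinib library 1 or 3 or any of the KP4 DMSO libraries. GABBR2, with 5 counts with trametinib and 2 with DMSO, had an adjusted p of 0.0445. Its adjusted p was 0.0697 with the replicate block, which ends the call, and 0.0513 to 0.808 without KP4 trametinib library 1, any KP4 DMSO library, MiaPaca2 trametinib library 1 or 3, or MiaPaca2 DMSO library 3. TMEM179, with 9 counts with trametinib and 3 with DMSO, had an adjusted p of 0.0174, 0.0543 without KP4 DMSO library 3 and 0.232 without KP4 trametinib library 3.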

How the results depend on the processing

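Under the other settings, the genes higher with trametinib in KP4 numbered 3065 to 4493 (3863 as reported) and the genes lower 3210 to 4508 (3890), with DESeq2 giving 3927 higher and 3531 lower; genes whose response differed between lines numbered 5148 to 5936 (5764). Only the strict filter, at least 10 CPM in at least 3 libraries, moved one of these counts by over 1.5 times. It gave 377 genes at least 2-fold higher (914 as reported) and 223 at least 2-fold lower (472). Calls of any size fell less under this filter, to 3065 higher and 3210 lower. Many of the 2-fold changes thus belong to genes of low level that the strict filter leaves out. It also moved the following list counts: 17 adhesion genes higher (34 as reported) and 3 lower (5), 6 potassium channels higher (14) and 3 lower (8), 10 homeobox genes higher (16) and 9 lower (18), 11 SOX, FOX, GATA and TBX factors higher (17), 7 matrix proteases and inhibitors lower (11), 2 S100 and annexin genes lower (4) and 3 polyamine genes higher (5). Leaving out each library in turn gave 3412 to 4180 higher, 3134 to 4285 lower, 863 to 957 at least 2-fold higher, 453 to 508 at least 2-fold lower and 5128 to 6743 such differences. That highest value came without MiaPaca2 DMSO library 2, which stood apart from its replicates. The KP4-only fit gives no difference between lines. Replicate numbers did not pair the KP4 samples: deviations of same-numbered libraries correlated at 0.026, 0.007 and −0.005, and not every library correlated best with its own number. With the replicate block there were 3764 higher and 3780 lower genes, 900 at least 2-fold higher, 466 at least 2-fold lower and 5599 differences. RLE size factors and library size only moved the median of all genes by 0.02 and 0.01. No called value reversed its direction. Depth limits genes with few counts: fitted changes of genes under 60 KP4 counts are imprecise.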
